A study of Homo sapiens with 24 samples.

Results

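HOX genes encode homeodomain transcription factors that give cells their position along the body axis. They lie in 4 clusters, HOXA, HOXB, HOXC and HOXD, on separate chromosomes, and the number in a name marks the paralogue group: low numbers are used towards the head and high numbers towards the tail and the limbs. Polycomb proteins keep the clusters silent and trithorax proteins keep them active, so adult tissues carry a stable pattern of HOX transcription that records their origin, and the cofactors PBX, MEIS and PKNOX bind DNA together with the HOX proteins. Many breast tumours transcribe HOX genes, and *HOTAIR*, a long non-coding RNA of the HOXC cluster, is known for its link to Polycomb and to metastasis of breast cancer.

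The members were the 39 protein-coding genes named HOXA, HOXB, HOXC or HOXD followed by a number, among 60605 gene entries in the count table. HOXA held 11 of them, HOXB 10, HOXC 9 and HOXD 9. Only the symbol chose them, and no measured value was used.

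Nascent transcription was measured by PRO-seq, which maps RNA polymerases that are engaged on DNA by letting them extend their transcript with a biotin-labelled nucleotide. The cells were T47D, an established line of luminal, estrogen receptor-positive breast cancer. In 3 TRPS1-dTAG clones, Clone 28, Clone 35 and Clone 39, the transcription factor TRPS1, a GATA-family repressor, carried a tag through which the small molecule dTAG-13 has the protein degraded. Each clone received either the vehicle (0.1% DMSO) or dTAG-13 at 100 nM. Treatment lasted 90 minutes and each of the 6 groups had 4 replicates, giving 24 libraries. All groups were grown in the same insulin-containing serum medium, and the clones derive from 1 earlier selected clone in which sequencing showed no insertion of the tag. In each of them several copies of *TRPS1* are knocked out, so that only the tagged protein is made. Replicates differ in the hour of treatment and harvest, all on 1 day, and for each of them DMSO and dTAG-13 cells were harvested side by side. No source used here says that they came from separate thaws. Each clone is 1 clone, so a p-value between clones measures only the spread between libraries of such collections. DMSO and dTAG-13 libraries of 1 collection entered as separate values, so each clone gave 8 libraries from 4 collections. Their pairing was not modelled in comparisons of clones, and these p-values can be too small. An unedited T47D control was not analysed here.

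The libraries held between 3226718 and 9575803 counted reads, with a median of 5042122, and HOX genes received between 0.0455% and 0.0781% of them. Markers of luminal cells, among them *ESR1* and *GATA3*, summed to between 3880 and 6253 CPM (counts scaled to a common library size) in each library. Of the basal markers, the keratins *KRT5* and *KRT14* did not exceed 0.312 and 1.25 CPM, while *TP63* had between 5.99 and 22.1 CPM. Transcription of *TRPS1* was between 5183 and 8747 CPM with DMSO and between 6304 and 9296 CPM with dTAG-13. Since the degron acts on the protein, these levels do not check the treatment labels. At a neighbour of the HOXB cluster, *SKAP1*, the library of Clone 28 with dTAG-13, replicate 1, stood at 320.3 CPM against 58.6 to 94.2 CPM in the other 23 libraries. At a neighbour of the HOXA cluster, *SKAP2*, Clone 39 had between 13.6 and 23.9 CPM, below the 320.2 to 403 CPM of Clone 28 and the 471 to 601 CPM of Clone 35.

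The coordinates below are those of hg38 in GENCODE release 44. HOXA lies on chromosome 7 and HOXB on chr17:48528526-48728750, both on the minus strand. HOXC lies on chr12:53938831-54056030 and HOXD on chr2:176092721-176190907, both on the plus strand. Of the 39 members, 22 overlap another member on the same strand, where the annotated span of one gene runs across its neighbours, and a read in such a stretch counts for each gene that covers it. *HOXC6* (ENSG00000197757, chr12:53990624-54030823) spans *HOXC8* and *HOXC9* and the first part of *HOXC4* (ENSG00000198353, chr12:54016931-54056030). *HOXC4* in turn spans *HOXC5*. An unnamed protein-coding entry that is not a member, ENSG00000273049 (chr12:53985845-54034888), lies on the same strand. It held 28044 reads, against 22647 for *HOXC6*. All of *HOXC6*, *HOXC8* and *HOXC9* lies within it, as do 85.0% of *HOXC10*, 79.5% of *HOXC5* and 45.9% of *HOXC4*. The stretch that *HOXC6* and *HOXC4* share is 34.6% of the span of *HOXC6* and 35.5% of that of *HOXC4*, so their values are not independent. Counts were read as strand-specific, since a gene nested in a host on the same strand exceeded its host in 21 of 5725 pairs (0.367%) and one on the opposite strand in 393 of 5668 pairs (6.93%).

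*HOXC4* and *HOXC5* have the same window of RefSeq promoter sequence (GRCh38.p14). It is shown because *HOXC4* had the smallest p-values over replicate numbers and was called with dTAG-13 once replicates were paired, and it lies at chr12:54016638-54016887 on the plus strand, the 250 bases before the start. Its GC content is 50.8% with 14 CpG dinucleotides. Capitals mark ATTGG, the reverse complement of CCAAT.
HOXC4 and HOXC5: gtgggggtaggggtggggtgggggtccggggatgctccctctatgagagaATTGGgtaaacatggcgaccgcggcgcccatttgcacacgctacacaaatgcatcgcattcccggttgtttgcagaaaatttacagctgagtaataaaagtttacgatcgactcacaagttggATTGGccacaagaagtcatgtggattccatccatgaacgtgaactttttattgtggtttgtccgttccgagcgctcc

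RefSeq promoter windows were available for 20 of the 39 members, in 26 windows, since some genes have several starts (*HOXA3* has 7). Among HOXC genes only *HOXC4* and *HOXC5* had a window, and among HOXB genes only *HOXB1*. The promoters of the other HOXC and HOXB genes, *HOXC6* and *HOXB2* among them, were not examined. CCAAT was found, on either strand, in 17 of the 26 HOX windows (65.4%) and in 32% of the 34943 windows of all genes. GATA, the core that GATA-family factors such as TRPS1 bind, was found in 10 of the 26 windows against 45.7% of all windows. The longer AGATAA, which contains GATA, was found in 2 HOX windows against 9.19%. TATAAA was found in 5 HOX windows against 10.8%, and AGGTCA, the half-site of the estrogen receptor, in 0 against 12.1%. These matches describe the letters of the windows and do not show binding.

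The HOX clusters also carry microRNA genes, which are shown because 2 of them lie inside HOXC hosts and changed with replicate number. *MIR196A2* (chr12:53991762-53991783 for the mature form) lies within *HOXC6* and *MIR615* (chr12:54034010-54034031 for the 3p form) within *HOXC5*. Members of the miR-196 family are known to repress HOX transcripts, *HOXB8* among them. The mature RefSeq sequences follow with the seed, bases 2 to 8, in capitals.
miR-196a-5p: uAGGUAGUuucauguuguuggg
miR-196b-5p: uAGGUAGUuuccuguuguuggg
miR-615-3p: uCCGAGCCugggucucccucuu
miR-615-5p: gGGGGUCCccggugcucggauc
The miR-196 forms share 1 seed and differ by A12C, counted from the 5′ end, the base of miR-196a first. Both arms of miR-615 have seeds of their own.

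HOXC was the most transcribed cluster in these cells. On the scale of CPM summed over the members and averaged over the 24 libraries, HOXC had 481 CPM, HOXB 84.0, HOXA 13.5 and HOXD 4.62. HOXC took 82.5% of the CPM summed over all HOX genes, HOXB 14.4%, HOXA 2.31% and HOXD 0.791%. Counting only members that overlap no other member on the same strand, the sums were 101, 34.9, 3.53 and 2.17 CPM, in the same order.

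A level per length (CPM per kb of annotated gene span) was used to compare genes with each other. This level depends on the annotated span, which for some members runs across neighbours, and a nested gene holds reads of its host. *HOXB2* (ENSG00000173917, chr17:48540894-48545109), a gene of hindbrain patterning, stood first with 8.24 ± 0.767 CPM per kb (SD, n = 24) and at the 97.3rd percentile of protein-coding genes, whose median was 0.577. It was above *HOXC10* in 23 of 24 libraries. *HOXC10* followed with 7.005 ± 0.643, *HOXC11* with 6.50 ± 0.839 and *HOXC9* with 6.24 ± 0.927 CPM per kb. *HOXC10* and *HOXC11* are posterior genes and *HOXC9* sets the identity of the thoracic region. The order among these 3 was weak: *HOXC10* was above *HOXC11* in 19 libraries and *HOXC11* above *HOXC9* in 16, and the differences in mean were smaller than the SDs. *HOXC9* was above *HOXC6* in 23 libraries.

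The next levels belonged to *HOXC6* (4.70 ± 1.14 CPM per kb), *HOXC13* (4.23 ± 0.893), *HOXC5* (3.45 ± 1.51), *HOXC4* (3.10 ± 1.08) and *HOXC8* (2.55 ± 1.21). *HOXC13* is known for its part in hair and nail formation. From *HOXC6* to *HOXC4* neighbours lay within 1 SD of each other, with the higher one ahead in 15 to 19 libraries, while *HOXC4* was above *HOXC8* in 23 of 24. A wide step followed, since *HOXC8* was above *HOXB8* (0.978 ± 0.249) in 23 of 24 libraries. *HOXC12* was the low member of its cluster with 0.569 CPM per kb, between *HOXD1* (0.575) and *HOXB6* (0.533). *HOXB13*, a prostate gene, stood last with 0.0116 CPM per kb. The median member had 4.23 CPM per kb in HOXC, 0.455 in HOXB, 0.0802 in HOXA and 0.0421 in HOXD.

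**Figure D1:**
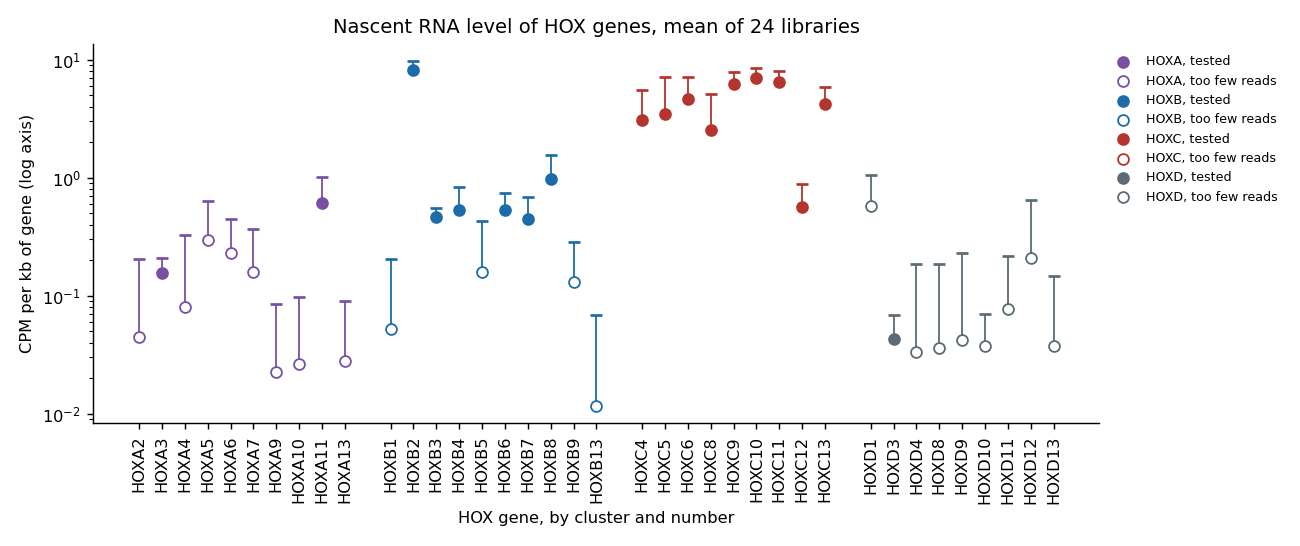
Level of the HOX genes reported here in CPM per kb of gene span on a log axis, grouped by cluster. Points are means of 24 libraries, the upper whisker reaches the highest library, filled points passed the filter on low counts and open points did not. 8 of the 9 HOXC genes lie above 2 CPM per kb, and *HOXB2* is the one gene outside HOXC that reaches their level.

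Of the 39 members, 18 had enough reads to be tested: all 9 of HOXC, *HOXB2*, *HOXB3*, *HOXB4*, *HOXB6*, *HOXB7* and *HOXB8*, *HOXA3* and *HOXA11*, and *HOXD3*. The other 21 had between 5 reads (*HOXB13*) and 163 reads (*HOXD1*) over all 24 libraries together and at most 13 reads in any library, and differences between their groups were not detectable at this depth. In 13 members every library held at least 10 reads. The counts that follow cover the 18 that passed and do not describe all members.

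The 3 clones were assayed to ask how robust an early change in transcription after loss of *TRPS1* is from clone to clone. Across the 3 clones no HOX gene was called by edgeR without pairing of replicates. *HOXC4* and *HOXC6*, a pair of neighbouring genes that share reads, had the lowest p-values, with fitted ratios of dTAG-13 to DMSO of 0.900 and 0.920. *HOXC4* and *HOXC6* act in the neck and upper thoracic region of the embryo, and *HOXC6* is also known in the mammary gland.

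*HOXC4* in Clone 28 had 122, 114, 102 and 103 CPM with DMSO and 87.9, 102, 96.1 and 93.0 CPM with dTAG-13. In Clone 35 it had 105, 94.2, 82.5 and 74.0 CPM with DMSO and 84.0, 90.0, 83.1 and 73.5 CPM with dTAG-13. In Clone 39 it had 218, 188, 170.3 and 161 CPM with DMSO and 178, 175, 161 and 156 CPM with dTAG-13, each in the order of replicates 1 to 4. The treatments did not overlap in Clone 28, where the nearest libraries both rounded to 102 CPM, and they overlapped in Clone 35 and Clone 39. The share of all genes with treatments apart in Clone 28 was not counted. The dTAG-13 library was below the DMSO library of the same clone and replicate number in 11 of 12 pairs, where 0.981% of all genes were lower in at least 11. The log2 difference over the 3 clones was −0.15 ± 0.05 (SE) with an adjusted p of 0.429 in edgeR's quasi-likelihood test. Fewer cells with active transcription and fewer polymerases per cell cannot be told apart in such bulk libraries.

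*HOXC6* in Clone 28 had 198, 179, 188 and 179 CPM with DMSO and 159.6, 163, 167 and 160.0 CPM with dTAG-13, groups that did not overlap. In Clone 35 it had 159, 152, 148 and 136 CPM with DMSO and 149, 143, 148 and 132 CPM with dTAG-13. In Clone 39 it had 287, 271, 239 and 225 CPM with DMSO and 233, 246, 239 and 232 CPM with dTAG-13. The last 2 clones overlapped between treatments. How many of all genes were apart in Clone 28 was not counted. *HOXC6* was lower in 10 of 12 pairs, where 3.63% of all genes were lower in at least 10, and its log2 difference was −0.12 ± 0.04 with an adjusted p of 0.270 in edgeR.

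With the 3 clones together, 0 of the 18 tested members were called at an adjusted p under 0.1, where 0.551% of all genes tested were called, and DESeq2 called 0. An unadjusted p under 0.05 was reached by *HOXC4* and *HOXC6*. Replicate numbers pair the libraries, since treatments were collected together. With each pair of the same clone and replicate number as a block, 2 members were called, both lower. In that fit 2.33% of all genes were called and 0.932% were called lower. *HOXC4* then had an adjusted p of 0.00693 with a log2 difference of −0.15 ± 0.03 (SE), and *HOXC6* 0.0148 with −0.12 ± 0.03. Both calls held without Clone 35 (adjusted p = 0.0119 and 0.0183) and without Clone 39 (0.0836 and 0.0646), while 0 members and 177 genes in all were called in the blocked edgeR fit without Clone 28, where the log2 differences were −0.11 for *HOXC4* (0.301) and −0.08 for *HOXC6* (0.590). Without the pair of Clone 28 whose dTAG-13 library stood apart at *SKAP1* the adjusted p-values were 0.0424 for *HOXC4* and 0.0795 for *HOXC6*. Without the 3 pairs of replicate 1 neither was called, with log2 differences of −0.08 for both and adjusted p-values of 0.384 for *HOXC4* and 0.316 for *HOXC6*. With the nested genes taken out of the host counts the blocked adjusted p-values were 0.00499 for *HOXC4* and 0.0263 for *HOXC6*.

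The other members of the cluster had small negative differences that edgeR did not call. *HOXC8*, a gene of the lower cervical and thoracic region, was lower in 11 of 12 pairs with a log2 difference of −0.21 ± 0.11 and an adjusted p of 0.797. *HOXC9* was lower in 10 of 12 pairs, with −0.08 ± 0.04 and an adjusted p of 0.815. *HOXC13* was lower in 7 of 12 pairs with −0.13 ± 0.08 (adjusted p = 0.899). All 9 HOXC genes had differences below 0, as did 14 of the 18 tested members, against 11376 of 22326 genes tested. The median log2 difference was −0.05 over the 18 members and −0.0018 over all genes. Overlapping members share reads, so this count of signs holds fewer independent values than genes.

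Outside HOXC the differences went both ways. *HOXA3*, a gene of the pharyngeal arches, had a log2 difference of 0.18 ± 0.10 (adjusted p = 0.878) and was lower in 3 of 12 pairs. *HOXB3* had −0.02 and was lower in 7 of 12 pairs. *HOXB3*, *HOXC4*, *HOXC6*, *HOXC9* and *HOXC13* are 5 HOX genes on the study's list of genes transiently repressed in a separate time course. *HOXC4* and *HOXC6* are also on its list of repressed estrogen receptor targets. That time course used Clone 28 only, treated with dTAG-13 together with another small molecule that has the tagged protein degraded. The blocked calls of *HOXC4* and *HOXC6* were lost without Clone 28, so these lists come from the clone on which the calls depended. The time course was not analysed here.

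**Figure D2:**
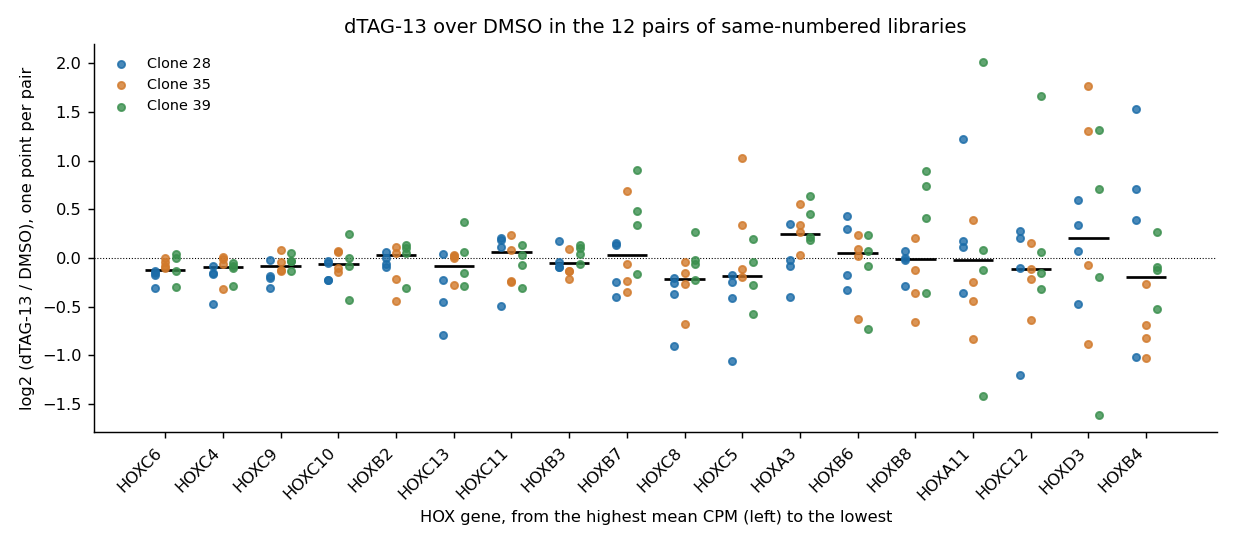
The log2 ratio of dTAG-13 to DMSO for each of 12 pairs of libraries of the same clone and replicate number, for the 18 tested HOX genes. Points are pairs and bars are medians. For *HOXC4* the pairs reach from −0.47 to 0.01 with a median of −0.09, and for *HOXC6* from −0.31 to 0.04 with a median of −0.12.

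By clone, *HOXC4* had log2 differences of −0.22 in Clone 28, −0.10 in Clone 35 and −0.14 in Clone 39, and *HOXC6* had −0.20, −0.06 and −0.11. In Clone 28, 0 members were called by edgeR, where 0.0537% of all genes were, and 0 by DESeq2. *HOXC4*, *HOXC6*, *HOXC9* and *HOXC13* had an unadjusted p under 0.05 there. With the replicate block, Clone 28 had 2 calls, both lower, where 1.18% of all genes were called and 0.385% were lower: *HOXC6* (−0.19 ± 0.05, adjusted p = 0.0387) and *HOXC4* (−0.21 ± 0.06, adjusted p = 0.0840). With nested genes taken out as well, the log2 differences were −0.19 for *HOXC6* and −0.20 for *HOXC4*, close to those with them, and the adjusted p-values of 0.101 and 0.135 were above the threshold. Without the pair that holds the library apart at *SKAP1*, replicate 1, the blocked log2 differences in Clone 28 were −0.16 (adjusted p = 0.417) and −0.13 (0.715). In Clone 35 edgeR and DESeq2 called 0 members (0% of all genes by edgeR), with *HOXB4* alone at an unadjusted p under 0.05, and in Clone 39 they called 0 members (0% of all genes) with 0 at an unadjusted p under 0.05. The test of a difference in response between the clones called 0 members by edgeR (0% of all genes) and 0 by DESeq2, with 0 at an unadjusted p under 0.05. A difference in response between the clones was therefore not shown.

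Summed over the cluster, HOXC had 477 ± 21.5 CPM with DMSO and 417 ± 18.03 CPM with dTAG-13 in Clone 28 (SD, n = 4), with libraries from 455 to 507 and from 398 to 441. In Clone 35 the sums were 389 ± 31.5 and 372 ± 17.5 CPM, and in Clone 39 they were 637 ± 64.1 and 596 ± 13.1 CPM. The groups overlapped in Clone 35 and Clone 39 and were apart in Clone 28. Reads in overlapping members count more than once in these sums. The share of all genes with treatments apart in Clone 28, which would set the scale for this sum, *HOXC4* and *HOXC6*, was not counted.

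For *HOXC4*, *HOXC6* and *HOXC8* the fitted differences of Clone 39 from the other clones were larger than those between treatments. Clone 39 had the highest HOXC transcription, and the genes that were higher were *HOXC4*, *HOXC5*, *HOXC6* and *HOXC8*, at one end of the cluster, and *HOXC13* at the other. Among the 18 tested members, 11 differed between the 3 clones, where 44.7% of all genes tested did, and these shares were not compared by a test.

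Summed over HOXC, the lowest, median and highest of 8 libraries were 398, 448 and 507 CPM in Clone 28, 349, 383 and 427 CPM in Clone 35, and 562, 606 and 707 CPM in Clone 39. No library of Clone 39 overlapped those of the others. The sum over HOXC genes that overlap no other member was 99.4 ± 9.33 CPM in Clone 28, 93.7 ± 7.30 in Clone 35 and 109 ± 7.97 in Clone 39 (SD, n = 8), and the clones were then closer together. HOXB differed less, with 81.1 ± 8.31, 85.7 ± 6.96 and 85.3 ± 4.44 CPM, and HOXD had 4.67 ± 0.808, 4.55 ± 1.30 and 4.63 ± 1.48 CPM. HOXA had 14.1 ± 1.65 CPM in Clone 28, 14.4 ± 0.992 in Clone 35 and 11.9 ± 1.10 in Clone 39.

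*HOXC8* (ENSG00000037965, chr12:54008985-54012769) showed the largest difference of Clone 39 from both other clones among the tested members. In Clone 28 it had 9.70, 7.33, 6.89 and 6.87 CPM with DMSO and 8.12, 5.69, 5.96 and 3.67 CPM with dTAG-13. In Clone 35 it had 8.11, 6.77, 6.81 and 7.33 CPM with DMSO and 6.73, 6.07, 6.59 and 4.59 CPM with dTAG-13. In Clone 39 it had 19.6, 16.5, 15.0 and 11.99 CPM with DMSO and 16.7, 16.2, 14.4 and 14.4 CPM with dTAG-13, and all 8 libraries lay above those of the other clones. The fitted log2 difference was 1.22 ± 0.13 against Clone 28 (adjusted p = 6.02e-10, edgeR) and 1.24 ± 0.12 against Clone 35 (2.30e-10), fitted ratios of 2.33 and 2.36. *HOXC8* and *HOXC9* lie wholly inside *HOXC6*, and *HOXC5* inside *HOXC4*, on the same strand. Their reads cannot be told apart from reads of their hosts.

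*HOXC4* and *HOXC6* were likewise apart in every library. For *HOXC4* the lowest, median and highest libraries were 87.9, 102 and 122 CPM in Clone 28, 73.5, 83.5 and 105 CPM in Clone 35, and 156, 173 and 218 CPM in Clone 39. Its log2 difference was 0.78 ± 0.06 from Clone 28 (adjusted p = 1.22e-11) and 1.04 ± 0.06 from Clone 35 (1.62e-14). *HOXC6* had medians of 173, 148 and 239 CPM in the same order, and its log2 differences were 0.50 ± 0.05 (2.13e-11) and 0.76 ± 0.05 (4.39e-16). Above every library of Clone 28 stood *HOXC4*, *HOXC6* and *HOXC8* of Clone 39, where 4.69% of all genes did so, and above every library of Clone 35 stood the same 3 genes and *HOXC9*, where 4% did. *HOXC6* and *HOXC9* of Clone 35 stood below every library of Clone 28, where 1.63% of all genes did.

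*HOXC5* (ENSG00000172789, chr12:54033050-54035361) had medians of 6.39 CPM in Clone 28, 4.99 in Clone 35 and 10.4 in Clone 39. Its log2 differences were 0.84 ± 0.17 (adjusted p = 0.000170) and 1.09 ± 0.17 (3.61e-06), although its libraries overlapped between clones. *HOXC13*, at the other end of the cluster, had medians of 27.7, 28.4 and 40.9 CPM, and its differences were 0.47 ± 0.09 (0.000126) and 0.45 ± 0.09 (0.000198). Between these ends, *HOXC10*, *HOXC11* and *HOXC12* of Clone 39 had log2 differences from Clone 28 of −0.01, −0.03 and −0.12 that edgeR did not call. Their medians were 36.1, 35.6 and 37.4 CPM for *HOXC10*, 31.7, 26.5 and 30.8 CPM for *HOXC11*, and 2.52, 1.79 and 2.44 CPM for *HOXC12*, in Clones 28, 35 and 39.

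*HOXC9* (ENSG00000180806, chr12:53994895-54003337) set Clone 35 apart. In Clone 28 it had 61.7, 57.2, 66.5 and 59.5 CPM with DMSO and 49.7, 49.5, 58.6 and 58.9 CPM with dTAG-13. In Clone 35 it had 47.7, 42.3, 43.3 and 42.3 CPM with DMSO and 43.8, 38.5, 45.8 and 41.2 CPM with dTAG-13. In Clone 39 it had 59.3, 58.4, 58.6 and 55.7 CPM with DMSO and 54.1, 57.2, 57.1 and 57.9 CPM with dTAG-13. Every library of Clone 35 was below every library of the others. The log2 difference from Clone 28 was −0.42 ± 0.05 (adjusted p = 3.09e-07), while Clone 39 differed from Clone 28 by −0.01 and was not called.

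**Figure D3:**
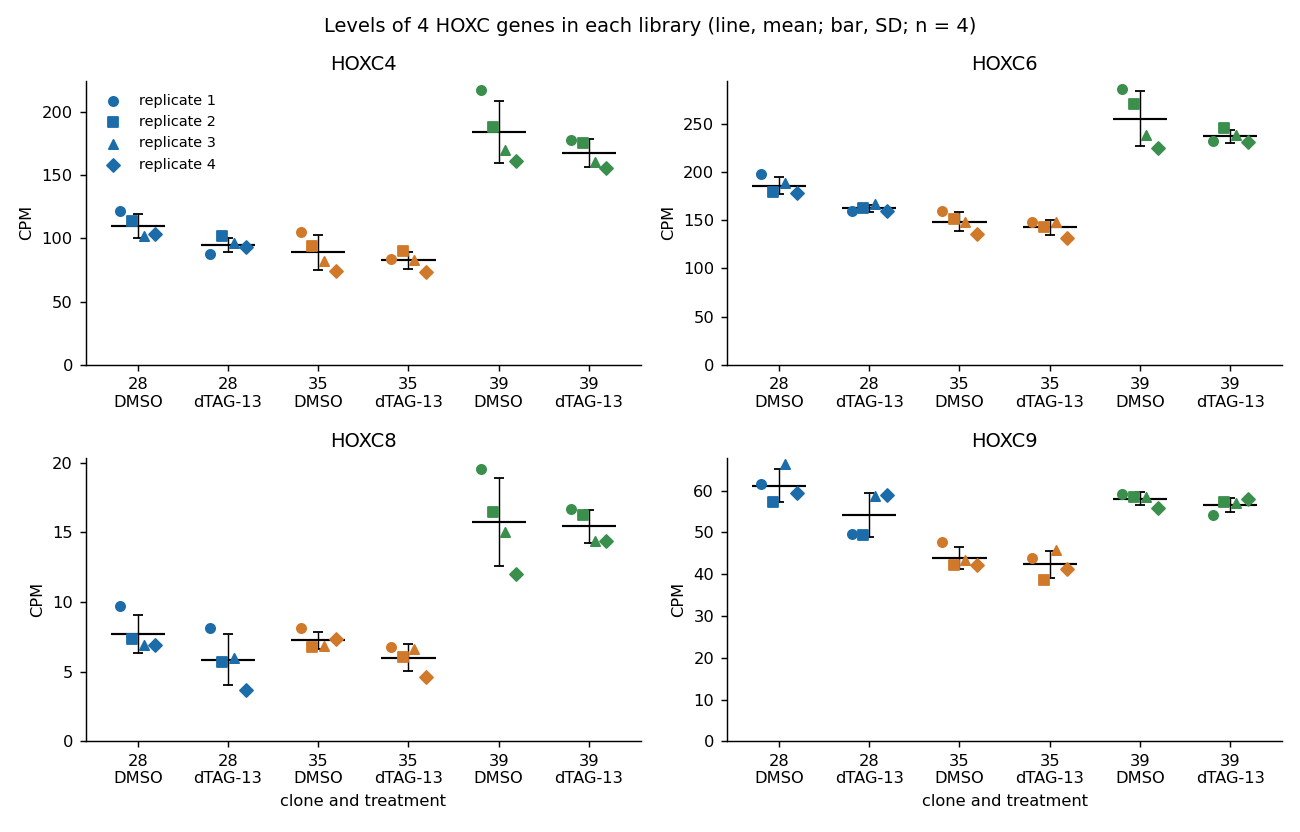
CPM of *HOXC4*, *HOXC6*, *HOXC8* and *HOXC9* in each of the 24 libraries, by clone and treatment. Symbols mark the replicate number, lines the mean and bars the SD (n = 4). Clone 39 lies above the other clones for *HOXC4*, *HOXC6* and *HOXC8*, and Clone 35 lies below the others for *HOXC9*.

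Clone 39 differed from Clone 28 in 7 of 18 tested members, where 40.7% of all genes were called, and from Clone 35 in 9 of 18, where 35% were. The replicate block added *HOXC11* between Clones 39 and 35 (log2 difference 0.18 ± 0.07, adjusted p = 0.0278, against 0.114 without the block). Against Clone 28, 6 were higher (19.5% of all genes) and 1 lower (21.2%). The higher ones were *HOXC8*, *HOXC5*, *HOXC4*, *HOXC6*, *HOXC13* and *HOXB7*. Against Clone 35, 7 were higher (16.3% of all genes) and 2 lower (18.7%). The higher ones were those 5 HOXC genes, *HOXC9* and *HOXB3*. *HOXA3* was lower in both, with medians of 8.24, 8.43 and 5.80 CPM in Clones 28, 35 and 39 and log2 differences of −0.43 ± 0.13 (adjusted p = 0.00753) and −0.43 ± 0.12 (0.00740). *HOXB8* was lower than in Clone 35 (log2 difference −0.40 ± 0.17, 0.0731).

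Members outside HOXC were closer together. *HOXB2* had a lowest, median and highest library of 29.1, 34.2 and 38.1 CPM in Clone 28, 27.3, 35.8 and 41.003 CPM in Clone 35, and 30.1, 34.99 and 37.3 CPM in Clone 39. *HOXB3*, a gene of the hindbrain and pharyngeal arches, had 22.5, 26.4 and 31.0 CPM, 22.6, 24.004 and 26.2 CPM, and 23.98, 27.7 and 28.8 CPM in the same order. The libraries of both genes overlapped between the clones, and of the pair *HOXB3* was called, between Clones 39 and 35 (log2 difference 0.17 ± 0.07, adjusted p = 0.0543). *HOXB2*, *HOXB4*, *HOXB6*, *HOXA11*, *HOXD3*, *HOXC10* and *HOXC12* were called in none of the 3 comparisons of clones by edgeR.

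Clone 35 differed from Clone 28 in 6 of 18, where 13.9% of all genes were called. There were 4 lower (7.02% of all genes) and 2 higher (6.86%). *HOXC9*, *HOXC4* (−0.26 ± 0.07, adjusted p = 0.00747), *HOXC6* (−0.26 ± 0.05, 0.000136) and *HOXC11* (−0.21 ± 0.08, 0.0999) were lower. *HOXB7* (0.42 ± 0.12, 0.0216) and *HOXB8* (0.43 ± 0.16, 0.0923) were higher. The calls nearest the threshold were the least stable, since leaving out 1 library at a time ended that of *HOXB8* in 18 of 24 fits and that of *HOXC11* in 12. *HOXB7* had medians of 9.19, 12.3 and 12.9 CPM in Clones 28, 35 and 39, with libraries that overlapped, and Clone 39 was above Clone 28 by 0.42 ± 0.13 (0.0104). With DMSO libraries alone, *HOXC6* and *HOXC9* were called between Clones 35 and 28, and *HOXC4* (adjusted p = 0.165), *HOXB7* (0.386), *HOXC11* (0.460) and *HOXB8* (0.471) were not. *HOXC13* (0.137) and *HOXB7* (0.557) were then not called between Clones 39 and 28, nor were *HOXB8* (0.105), *HOXA3* (0.123) and *HOXB3* (0.604) between Clones 39 and 35. The median log2 difference over the 18 members was −0.04 in Clone 35 and 0.04 in Clone 39 against Clone 28, and 0.16 in Clone 39 against Clone 35, where all genes had 0.01, 0.00 and 0.00.

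**Figure D4:**
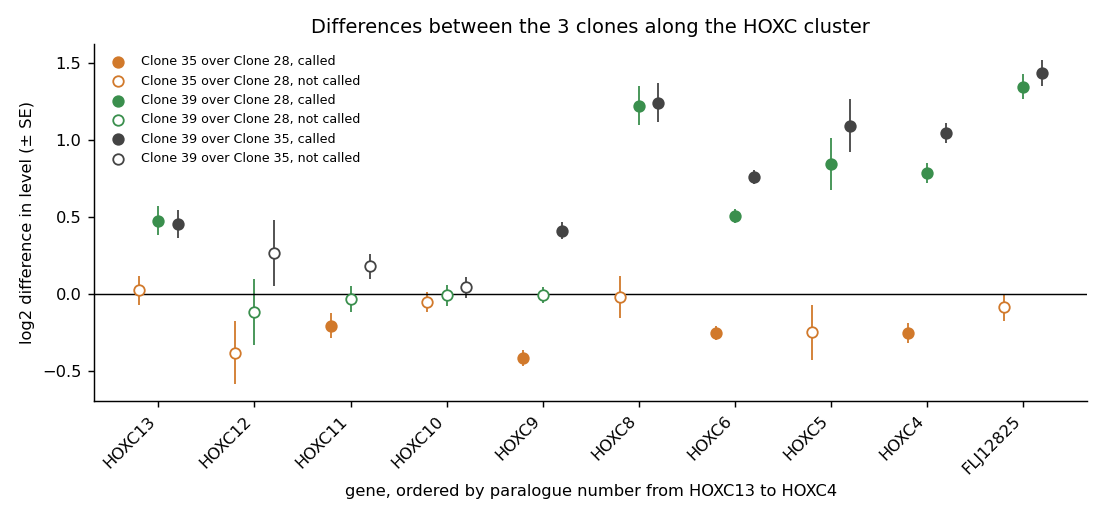
The log2 difference (± SE) between clones for each HOXC gene and the neighbouring transcript *FLJ12825*, ordered by number from *HOXC13* to *HOXC4*. Filled points were called at an adjusted p under 0.1. Clone 39 is higher from *HOXC8* to *FLJ12825* and at *HOXC13*, and was not called against Clone 28 from *HOXC12* to *HOXC9*.

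The same comparisons were made with the reads of nested HOX genes taken out of their hosts. The stretch that *HOXC6* and *HOXC4* share stayed in the counts of both, as did the reads shared with ENSG00000273049. Of the reads of *HOXC6*, 66.6% lie outside the HOX genes nested in it, and of those of *HOXC4*, 93.5%. With the nested genes taken out, *HOXC6* was 0.66 higher in Clone 39 than in Clone 28 on the log2 scale, against 0.50 with them. The part of *HOXC4* outside the unnamed overlapping gene ENSG00000273046 was 1.15 higher (adjusted p = 3.31e-12), with medians of 38.4, 36.7 and 93.0 CPM in Clones 28, 35 and 39. *HOXB7* of Clone 35 kept its log2 difference from Clone 28 of 0.42, but with an SE of 0.17 in place of 0.12 it was not called (adjusted p = 0.121), and with the block as well it was (0.0773). *HOXB3* of Clone 35 became lower than that of Clone 28 (log2 difference −0.22, adjusted p = 0.0564), where it had not been called with nested genes counted.

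Other transcripts of the HOXC locus went in opposite directions. *FLJ12825*, a transcript beyond *HOXC4*, had between 44.1 and 69.5 CPM in the 16 libraries of Clones 28 and 35 and between 124 and 176 CPM in Clone 39, a log2 difference of 1.34 from Clone 28 (adjusted p = 9.70e-13). The antisense RNAs of the middle of the cluster were lower in Clone 39: the log2 difference from Clone 28 was −2.02 for *HOXC-AS1* (5.81e-06), −0.86 for *HOXC-AS2* (1.37e-09) and −0.42 for *HOXC-AS3* (1.87e-05). Their medians in Clones 28, 35 and 39 were 3.17, 1.69 and 0.612 CPM for *HOXC-AS1*, 25.3, 19.9 and 14.4 CPM for *HOXC-AS2*, and 45.6, 39.1 and 34.3 CPM for *HOXC-AS3*. *HOTAIR* had 68.1, 54.0 and 63.1 CPM and was lower in Clone 35 than in Clone 28 (log2 difference −0.33, 9.78e-06), with −0.09 in Clone 39 (not called).

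Beyond the cluster more genes were lower than higher. Of the 52 genes tested within 1 Mb on either side of HOXC, 6 were higher and 28 lower in Clone 39 than in Clone 28, with a median log2 difference of −0.19, where 19.5% of all genes were higher and 21.2% lower, and 3 were higher and 14 lower in Clone 35 with a median of −0.09. They included *SMUG1*, a DNA repair glycosylase (−0.49), and *CBX5*, which encodes the heterochromatin protein HP1 alpha (−0.36). In the same comparison of Clones 39 and 28, the flanks of HOXA had 2 higher and 7 lower of 12 tested (median −0.13), those of HOXD 1 and 5 of 11 (median 0.03) and those of HOXB 9 and 5 of 45 (median 0.04). DNA copy number in the clones was not analysed here, and its part in these differences was not tested.

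HOX genes also differed between replicate numbers, the collections within the day. The 6 libraries of each number, from all clones and treatments, were fitted as independent values. A p-value between numbers therefore measures the spread between libraries within the collections and does not extend to other collections or days. A difference was called for 7 of 18 tested members, where 37.4% of all genes tested were called, so the share of HOX genes was near that of all genes. The smallest p-values belonged to *HOXC4* (adjusted p = 2.21e-05), *HOXC5* (0.00217), *HOXC6* (0.0125) and *HOXC11* (0.0164), followed by *HOXC8* (0.0177), *HOXC13* (0.0520) and *HOXB2* (0.0863).

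Replicates 3 and 4 together were compared with replicates 1 and 2, a split proposed with earlier results of these data known. The p-values of this split likewise do not measure the spread between collections. *HOXC4* had a median of 109 CPM in replicates 1 and 2 and 98.9 CPM in replicates 3 and 4, a fitted log2 difference of −0.19 ± 0.03 (adjusted p = 3.66e-06). *HOXC5* had 8.79 and 5.85 CPM (−0.48 ± 0.11, 0.000253) and *HOXC8* had 8.11 and 6.88 CPM (−0.27 ± 0.09, 0.0197). *HOXC11* went the other way, with 27.7 and 30.9 CPM (0.15 ± 0.06, 0.0297). *HOXC6* was lower in the fit (−0.09 ± 0.03, 0.0151), although its medians of 171 and 173 CPM did not show it, and *HOXB2* (0.11, 0.0771, a call lost in 13 of 24 fits that each left out 1 library) and *HOXB8* (0.33, 0.0547) were higher, so 7 of 18 members were called, where 40.9% of all genes were. Of these 4 were lower (20.2% of all genes) and 3 higher (20.7%). The ranges of replicates 1 and 2 and of replicates 3 and 4 overlapped for all 18 tested members.

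The microRNA genes and *FLJ12825* were lower in replicates 3 and 4 as well. *MIR196A2*, with between 0.628 and 9.01 CPM per library, had a log2 difference of −1.48 (adjusted p = 6.60e-09). *MIR615*, with between 0.138 and 5.65 CPM, had −1.38 (0.00156), and *FLJ12825* had −0.28. The mature and the precursor parts of a microRNA gene cannot be told apart in nascent reads, and *MIR10B* and *MIR196B* had 0 reads in all libraries.

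**Figure D5:**
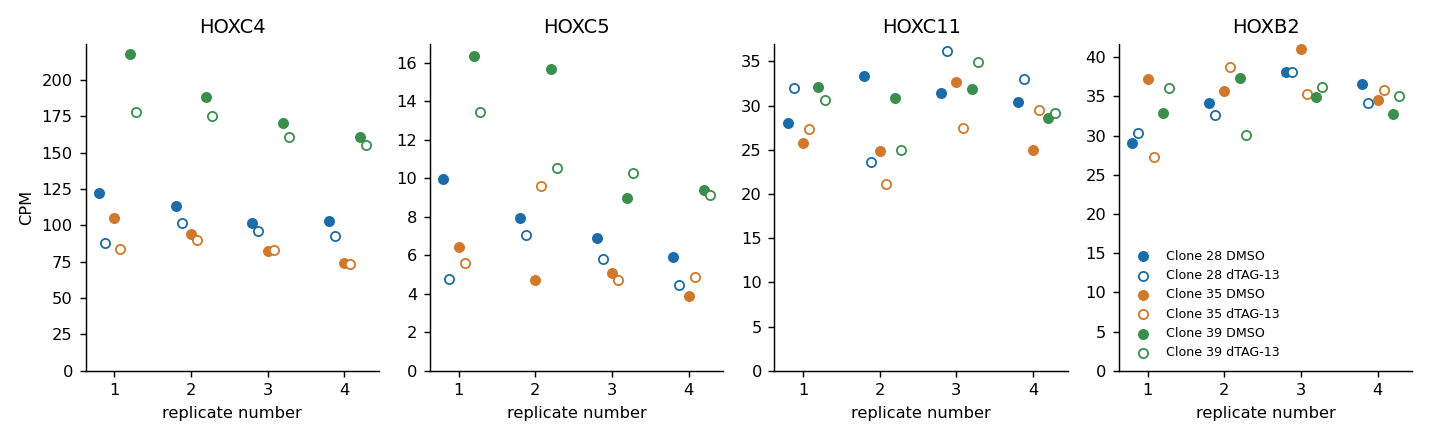
CPM of *HOXC4*, *HOXC5*, *HOXC11* and *HOXB2* by replicate number, with the 3 clones in colours, DMSO as filled and dTAG-13 as open symbols. *HOXC4* and *HOXC5* are lower in replicates 3 and 4, and *HOXC11* and *HOXB2* are higher.

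The response to dTAG-13 was also compared between replicate numbers. *HOXC4* was the 1 member of 18 with an interaction of treatment and replicate number (adjusted p = 0.0880, edgeR), where 1.63% of all genes were called. Leaving out 1 library at a time gave 0 to 2 members, with a count other than 1 in 17 of 24 fits. Averaged over clones, its log2 ratio of dTAG-13 to DMSO was −0.36 in replicate 1, −0.11 in replicate 2, −0.05 in replicate 3 and −0.07 in replicate 4. The difference of *HOXC4* was largest in replicate 1. For *HOXC6* the values were −0.24, −0.12, −0.06 and −0.05 (not called). With the replicate block the adjusted p of *HOXC4* was 0.0588, where 2.09% of all genes were called. With nested genes taken out and no block it was 0.129, and *HOXB7* was called instead (0.0490). With nested genes taken out and the block, both *HOXC4* (0.0958) and *HOXB7* (0.0304) were called. The log2 ratios of *HOXB7* were 0.12, 0.58, −0.04 and −0.25 before nested genes were taken out.

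Genes for proteins that act with HOX factors were compared in the same way. Of the PBX, MEIS and PKNOX genes, which encode the cofactors, 9 were tested and 0 were called with dTAG-13. Between Clones 39 and 28, 7 of 9 were called, 2 higher and 5 lower, with *MEIS3* (−1.81), *PKNOX2* (0.58) and *MEIS2* (−0.57) the largest and a median of −0.18 over the list, where 40.7% of all genes were called. Of 17 Polycomb genes 5 were called between these clones, 3 higher and 2 lower, with *PHC3* (−0.33), *JARID2* (0.26) and *PCGF2* (0.26) the largest and a median of −0.00 over the list. Of 9 trithorax and demethylase genes 4 were called, among them *KDM6B* (−0.74), *KMT2B* (0.25) and *KDM6A* (−0.19). Of 8 tested HOX long non-coding RNAs 6 were called, 1 higher and 5 lower, among them *HAGLR* (−0.94) beside the HOXC antisense RNAs.

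With dTAG-13, 0 genes of the Polycomb, trithorax, long non-coding RNA, microRNA and flanking gene lists were called without the block. With the replicate block, *PCGF2* (−0.13, adjusted p = 0.0740), a subunit of Polycomb complexes, and *FLJ12825* (−0.20, 0.000381) were lower. In that fit 0.932% of all genes were called lower. Of the 10 luminal markers, *KRT19* (−0.13, 0.0346) and *SPDEF* (−0.14, 0.0765) were lower without the block, where 0.551% of all genes were called. The summed basal, immune, fibroblast and endothelial markers were low in every library, between 5.99 and 22.1, between 10.8 and 23.2, between 7.59 and 17.0 and between 3.60 and 8.12 CPM.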

How the data were processed

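The authors deposited 1 table of gene-level counts for the 24 PRO-seq libraries, whole numbers with no normalization. Per the labels and the study's methods, adapters were cut with cutadapt 1.8.1, PCR duplicates were removed by molecular identifiers before alignment, reads from ribosomal DNA were dropped, and the rest were aligned to hg38 with Bowtie2 2.4.4 and handled with SAMtools 1.9. The annotation release and the settings of the counting step are not given in the sources used here. A read in overlapping genes can count for each of them.

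Of the 60605 identifiers, 60463 matched GENCODE release 44, from which names and positions were taken, and 7268 had 0 reads throughout. Counts were fitted in edgeR 4.0.16 (R 4.3.3, limma 3.58.1), with TMM scaling, a filter by filterByExpr on the 6 groups (minimum count 10) that left 22326 genes, and the robust quasi-likelihood test, with Benjamini-Hochberg adjustment over all 22326 and a threshold of 0.1. Fits of treatment held clone as a covariate, fits of clones held treatment, and the fit within clones used 6 groups with 18 residual degrees of freedom. CPM values use TMM-scaled library sizes. DESeq2 1.42.0 served as an alternative, and the fits were tested on simulated counts. Precision rests on the spread between replicates and on the read totals, and counting error alone would be smaller, since 36 pairs of replicates differed by 1.58 to 11.9 times the sampling noise (chi-square per degree of freedom).

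Same-numbered libraries of both treatments were collected together, and their deviations from the group means correlated by 0.108 to 0.347 over genes (mean 0.204, 12 pairs), so the replicate number pairs them, and blocked values are given where they change a call. Alternatives were other scaling, filters, thresholds and tools, the replicate block, DMSO libraries alone, and leaving out each library or clone. In tests of treatment and its interactions, the block was the pair of the same clone and replicate number. In comparisons of clones it was the replicate number. The blocked fits without each clone or without pairs of replicate 1, the counts with nested genes taken out of their hosts, and both together were added after seeing the data. Named are members called in any treatment or interaction test, the 12 with the highest mean CPM, up to 3 called members per direction in each comparison of clones, the 4 with the smallest p over replicate numbers, members on the study's time-course lists, members at the ends of the level order, and from other lists those called with dTAG-13 and up to 3 with the largest clone difference. Other members and transcripts of the HOXC locus that are named were chosen after their values were seen. The members, the lists and the split of replicate numbers were chosen with earlier results of these data known. The values of 1 member and of 1 Polycomb gene are not reported here.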

Additional observations from a re-analysis of the deposited data

Results flagged for a closer look

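In 6 of 132 groups of 4 libraries, over the 18 tested members and the sums of the 4 clusters, 1 library lay far from the other 3 by Dixon's criterion, where chance would give about 6.6. HOXA3 had 3.81 CPM in replicate 3 of Clone 39 with DMSO, against 5.59 to 5.66 in the others. HOXB6 had 6.77 CPM in replicate 2 of Clone 35 with DMSO, against 4.98 to 5.26. HOXC8 had 9.70 CPM in replicate 1 of Clone 28 with DMSO, against 6.87 to 7.33. HOXC11 had 32.6 CPM in replicate 3 of Clone 35 with DMSO, against 24.9 to 25.7. HOXC12 had 3.56 CPM in replicate 2 of Clone 28 with DMSO, against 2.37 to 2.55. The HOXD sum was 5.81 CPM in replicate 3 of Clone 28 with DMSO, against 3.98 to 4.19. The response of HOXC4 to dTAG-13 differed between replicate numbers, with an adjusted p of 0.0880 in edgeR's test of the interaction.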

How the results depend on the processing

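Counts below are of the 18 tested members, unless all genes are named. With the pair of the same clone and replicate number as a block, 2 members were called with dTAG-13 in place of 0 (also 2 with the block without Clone 35, without Clone 39, without the pair of replicate 1 of Clone 28, or with nested genes taken out), and 2 in Clone 28. Without Clone 28, or without the pairs of replicate 1, the blocked fit called 0. The block also added HOXC11 between Clones 39 and 35 and changed no other call of a member in the comparisons fitted with it. Without the filter on low counts 1 member, HOXC4 (adjusted p = 0.0640), was called with dTAG-13. The 11 differences between the 3 clones became 7 with DMSO libraries alone, 7 without Clone 35 and 5 without Clone 39, and the 6 between Clones 35 and 28 became 2 with DMSO libraries alone. Of 7 members that moved with replicate number, 4 were called with DMSO libraries alone and 3 without Clone 35, and of 7 between replicates 3 and 4 and replicates 1 and 2, 4 without Clone 28 and 4 without Clone 35. The interaction of treatment and replicate number, called for 1 member, fell to 0 at a threshold of 0.05, with library totals, without the filter, with DESeq2 and without each clone, and rose to 2 with the block and nested genes taken out. Leaving out 1 library at a time gave 0 to 2 for it, with a count other than 1 in 17 of 24 fits, and 4 to 6 between Clones 35 and 28, 7 to 8 between 39 and 28, 8 to 10 between 39 and 35, 9 to 11 over the clones, 5 to 8 over replicate numbers and 0 with dTAG-13. HOXB8 lost its call between Clones 35 and 28 in 18 of these 24 fits and HOXC11 in 12, HOXB2 lost its call between replicates 3 and 4 and replicates 1 and 2 in 13, and HOXB3 lost its call between Clones 39 and 35 (adjusted p = 0.104) without replicate 4 of Clone 35 with DMSO. HOXC6 was not called between replicates 3 and 4 and replicates 1 and 2 with library totals (adjusted p = 0.182), without the filter (0.311) or without Clone 39 (0.236). The sums over members that overlap no other member were 3.53 (HOXA), 34.9 (HOXB), 101 (HOXC) and 2.17 CPM (HOXD). Over all genes, the 123 calls with dTAG-13 became 197 without the filter, 521 with the block, 1 without Clone 28, 37 without Clone 35 and 37 without Clone 39, and with the block 177 without Clone 28, 359 without Clone 35, 382 without Clone 39, 448 without the Clone 28 pair of replicate 1 and 488 without all pairs of replicate 1. The 12 in Clone 28 became 7 (RLE scaling), 22 (totals), 87 (no filter), 23 (at least 10 counts), 34 (DESeq2) and 263 (block), or with the block 148 without its pair of replicate 1 and 166 without all 3 such pairs. Leaving out 1 library at a time gave 66 to 149 over the 3 clones and 2 to 28 in Clone 28 (2 without replicate 4 with DMSO or replicate 1 with dTAG-13, 28 without replicate 1 with DMSO), 0 to 1 in Clone 39 and 223 to 497 for the interaction with replicate number. The 0 in Clone 35 became 4 without the filter, 1 with DESeq2 and 21 with the block, and the 0 in Clone 39 became 2, 1 and 16. With DMSO libraries alone the 9978 over clones became 5642 (3056 without Clone 39), the 3100 between Clones 35 and 28 became 996 (4972 with the block), and the 9084 and 7805 of Clone 39 became 5286 and 4561. The 8355 over replicate numbers became 5370 without Clone 28, and the 365 of the interaction became 108 with DESeq2 and 198, 73 and 186 without Clones 28, 35 and 39. Apart from fits with fewer libraries or another set of genes, the cause of these changes was not tested.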
